A study of Mus musculus with 6 samples.

Results

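Kidney RNA of hyperuricemic mice was examined for the genes that carry Wnt signals across the cell surface: the Wnt ligands, their Frizzled receptors and co-receptors, the secreted inhibitors, the R-spondins with their Lgr receptors, and the ligases, Axins and TCF/LEF factors that set the response. Members were protein-coding genes of the deposited count table whose GENCODE M21 symbol is Wnt, Fzd, Dkk, Sfrp, Rspo or Lgr followed by a number, together with Frzb, Wif1, Lrp5, Lrp6, Axin1, Axin2, Lef1, Tcf7, Tcf7l1, Tcf7l2, Znrf3, Rnf43, Notum, Ror1 and Ror2. This rule gave 59 of the 55450 genes in the table. It goes by gene symbol alone, but it was set with earlier results of these data known. The animals of both groups were male wild type C57BL/6J mice, bought at 7 weeks of age and kept for 1 week before use. The day-0 mice are the controls, whose labels name 20% PEG. The day-21 mice were gavaged every day with 2 compounds, adenine at 0.16 g/kg and, at 2.4 g/kg, potassium oxonate. In this chemical model potassium oxonate blocks uricase and adenine feeds purine breakdown. Uric acid rises and the kidney is injured, and effects of uric acid and of the compounds themselves cannot be told apart in these groups. By the paper's schedule each group was killed on its own day, so age differed along with treatment. Only the control labels name PEG, and how it was given is not stated. Effects of age, gavage and PEG cannot be told apart from those of the treatment either. Of 6 mice in a group of the study, 3 were sequenced per group, 1 library per mouse from whole kidney, and p-values measure the spread among these libraries.

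Wnt proteins are secreted ligands that bind Frizzled receptors together with Lrp5 or Lrp6, which stops the destruction complex built on Axin and Apc from degrading β-catenin. Stabilized β-catenin then works with TCF/LEF factors at target genes, while other ligands signal through Ror receptors and planar cell polarity proteins without β-catenin. In the kidney the pathway builds nephrons and the collecting duct during development, is quiet in most adult tubules, and is widely studied in tubular injury and fibrosis.

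The activity of a Wnt ligand rests on 1 serine to which the enzyme Porcupine attaches a fatty acid, and the inhibitor Notum takes that fatty acid off again. The 24 coding bases that hold this serine, with its codon in capitals, are shown for both ligands that passed the test on day 21 (Wnt7a and Wnt10a) and for the other 3 ligands among the 5 with the highest levels per kilobase on day 21 (Wnt7b, Wnt4 and Wnt5a).
Wnt7a: tgccatggtgtgTCAggctcctgt
Wnt10a: tgccacggcaccTCAggcagctgc
Wnt7b: tgtcacggtgtgTCAggctcctgt
Wnt4: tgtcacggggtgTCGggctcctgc
Wnt5a: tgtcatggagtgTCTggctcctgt
These are reference sequences from GRCm38, read 5′ to 3′ on the coding strand of the GENCODE M21 transcript. The Wnt7a site lies at chr6:91366272-91366295 on the minus strand, in coding exon 4 of 4, and the Wnt10a site at chr1:74803156-74803179 on the plus strand, also in exon 4 of 4. The Wnt7b site is at chr15:85537812-85537835 on the minus strand, the Wnt4 site at chr4:137296345-137296368 on the plus strand and the Wnt5a site at chr14:28522515-28522538 on the plus strand, each in the last exon of its transcript. All 19 ligand genes had 1 such site, and the serine was written as TCA in 6 of them, TCC in 5, TCT in 4, TCG in 2 and AGT in 2. The ligands that passed the test therefore shared the site with ligands that did not.

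Libraries held 10963849 to 14333311 counts, and 3 counts, used here as the floor, corresponded to 0.179 to 0.309 CPM (counts scaled to a common library total, with TMM factors). The members took 0.105% to 0.115% of all counts on day 0 and 0.144% to 0.153% on day 21. These are shares of raw counts, before TMM factors of 0.852 to 0.886 on day 0 and 1.12 to 1.17 on day 21. Mitochondrially encoded genes took 9.39% to 9.86% of counts on day 0 and 3.82% to 4.42% on day 21. Scaled by library size alone, genes in general also moved up, with a median of 0.42 on the log2 scale. A higher raw share was therefore not particular to the members. Tubular markers of the kidney were present in every library, and markers of several cell types moved strongly. The summed level of 6 proximal tubule markers was 9256 to 10100 CPM on day 0 and 1781 to 2209 CPM on day 21, with all 6 lower. The sum of 8 fibroblast and pericyte markers went from 273 to 400 CPM to 1206 to 2269 CPM, that of 5 macrophage markers from 115 to 145 CPM to 538 to 649 CPM, and that of 4 injured tubule markers from 23.5 to 60.8 CPM to 1887 to 2294 CPM, with every marker of these lists higher. Sums for principal cells were 440 to 596 CPM against 248 to 286 CPM, and for urothelium 4.21 to 21.0 CPM against 5.48 to 11.1 CPM. Of the 5 principal cell markers only 2, Aqp2 and Aqp3, were called lower. The mean of Scnn1g went the other way without a call, from 49.1 to 57.6 CPM. Of the 5 urothelium markers 1 was called lower. In whole kidney, fewer cells of a type and less RNA per cell cannot be told apart, and the part of cell composition in the values of the Wnt genes was not tested.

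Of the 59 members, 42 passed the filter on low counts and 17 did not. On day 21, 10 of the 42 were differentially expressed upward and 2 downward (edgeR quasi-likelihood test, Benjamini-Hochberg adjusted p under 0.05 over all genes tested and a fold change over 1.5). That is 23.8% higher and 4.76% lower, beside 19.6% higher and 15.5% lower among all 16592 genes tested. The 10 were the ligands Wnt7a and Wnt10a, the receptors Fzd2, Fzd3, Fzd6 and Fzd8, the inhibitors Dkk3, Sfrp4 and Sfrp5, and the transcription factor Tcf7. The co-receptor Lrp6 and the inhibitor Notum were lower. The median log2 fold change of the 42 was 0.38, beside 0.03 for all genes, and with library size alone as the scaling these medians were 0.77 and 0.42. The 3 mice of each day did not overlap for 15 members higher on day 21 and 5 lower, where 30.6% and 26.4% of all genes tested did not overlap in the same directions and 57.1% in either. The members' share of calls in either direction was 28.6%, beside 35.1% of all genes. Without a limit on the fold, adjusted p was under 0.05 for 12 members higher and 4 lower on day 21, beside 45.6% of all genes in either direction.

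**Figure D1:**
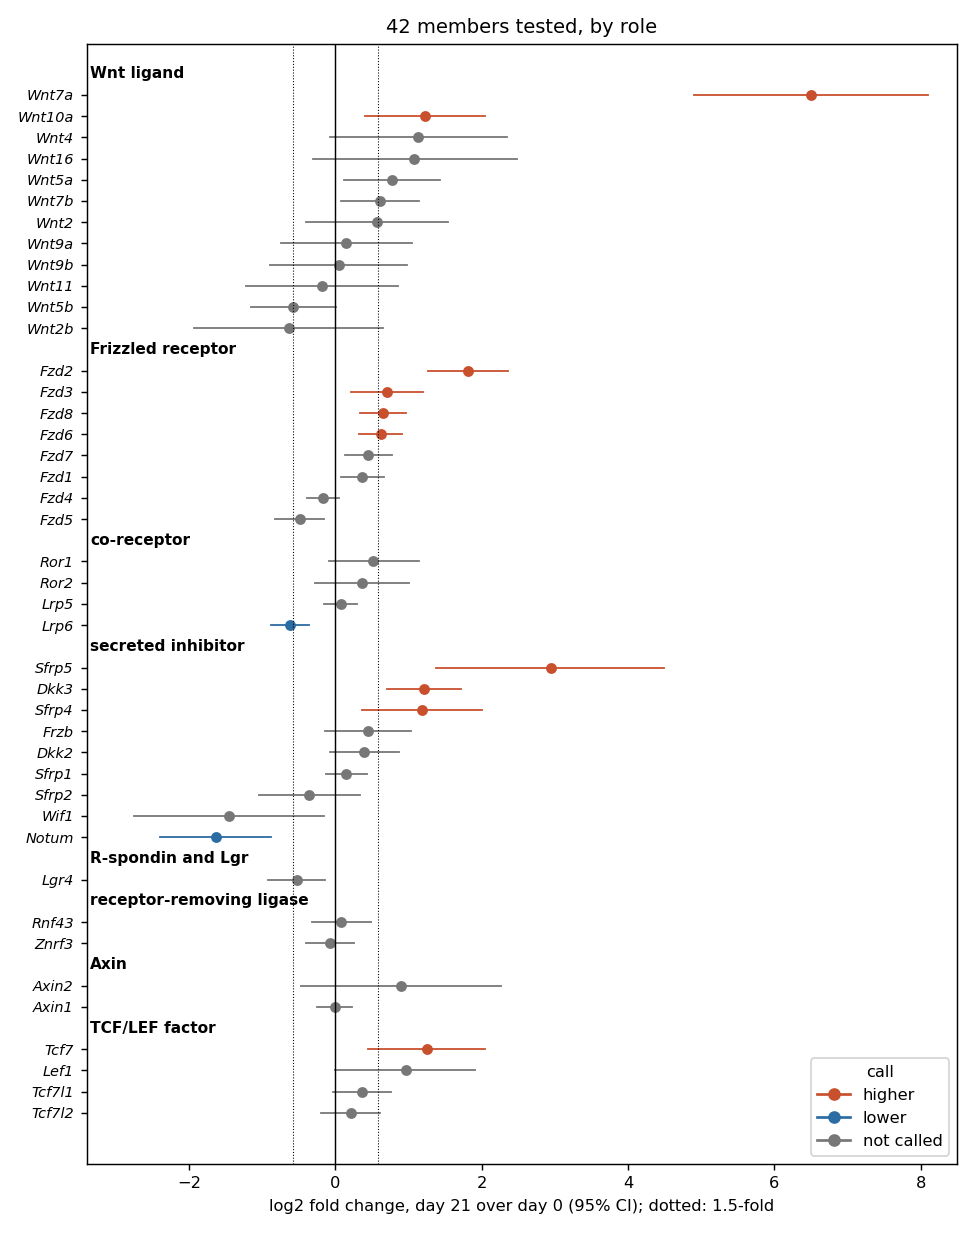
Log2 fold change of day 21 against day 0 for the 42 members tested, ordered by role, each point an edgeR estimate from 3 against 3 mice with its 95% confidence interval; dotted lines mark 1.5-fold. The 12 differentially expressed members are colored, of which Wnt7a lies farthest to the right (6.50) and Notum farthest to the left (-1.63).

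Wnt7a, a ligand known from limb and nervous system development, changed most among the ligands. The day-0 libraries held 2, 0 and 0 reads of it, those of day 21 51, 131 and 133. In CPM this was 0.200, 0 and 0 against 3.60, 7.80 and 8.13, a mean of 0.0668 ± 0.116 against 6.51 ± 2.53 (SD, n = 3 each). Every day-0 mouse was under the floor of 3 counts and every day-21 mouse far above it. With day 0 set at the floor of 3 counts per library, Wnt7a was at least 22.8-fold higher on day 21 (edgeR adjusted p = 5.4e-05). The exact permutation test of this single gene gave p = 0.1, the smallest value that 3 against 3 mice allow, two-sided. The fitted log2 change, 6.50 (SE 0.72), depends on the handling of the zeros and moved to 9.49 without day-0 replicate 1 and 5.89 without day-0 replicate 2, with the call kept. The gene lies at chr6:91363981-91411363 on the minus strand.

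Wnt10a, a ligand of skin, hair and tooth development, measured 1.20, 3.21 and 2.16 CPM on day 0 and 3.67, 6.25 and 5.69 CPM on day 21. All day-21 mice were above all day-0 mice, but the gap between the nearest mice was narrow. The mean rose from 2.19 ± 1.00 to 5.20 ± 1.36 CPM (SD, n = 3 each), a log2 change of 1.23 (SE 0.37, 95% interval 0.41 to 2.05, edgeR adjusted p = 0.020). The call was lost without day-0 replicate 1 (0.92, edgeR adjusted p = 0.054), day-21 replicate 2 (1.08, edgeR adjusted p = 0.075) or day-21 replicate 3 (1.17, edgeR adjusted p = 0.067). Wnt10a lies at chr1:74791516-74804179 and its neighbour Wnt6 lies 6193 bases away with no protein-coding gene between. Wnt6 stayed near the floor, at 6, 1 and 2 counts against 6, 4 and 1.

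The other 10 ligands tested did not pass the test. Of the 12 ligands tested, 16.7% were thus higher and 0% lower, beside 19.6% and 15.5% of all genes tested. The share of ligands called was therefore not above that of genes in general. Wnt7b, a collecting duct ligand, had the highest level per kilobase of exon of any ligand on both days, 4.28 CPM per kb on day 0 and 6.51 on day 21. It measured 14.7, 17.5 and 30.7 CPM on day 0 and 27.5, 33.2 and 35.0 CPM on day 21, so day-0 replicate 3 lay inside the day-21 range (log2 difference 0.61, SE 0.24, edgeR adjusted p = 0.060). Wnt7b passed with limma-voom (0.69, limma adjusted p = 0.027), upper-quartile scaling (0.70, edgeR adjusted p = 0.037), library size alone (1.00, edgeR adjusted p = 0.0065) and no filter on low counts (0.62, edgeR adjusted p = 6.9e-04). Wnt4, which drives the first epithelial step of nephron formation, measured 1.30, 6.59 and 15.1 CPM against 12.4, 19.8 and 18.0 CPM. Its day-0 mice spanned more than the day-21 mice, and the log2 difference of 1.13 had an interval of -0.08 to 2.34 (SE 0.54, edgeR adjusted p = 0.12). Wnt4 passed with limma-voom (1.68, limma adjusted p = 0.031), library size alone (1.53, edgeR adjusted p = 0.037) and no filter (1.14, edgeR adjusted p = 2.9e-07). The no-filter differences of Wnt7b and Wnt4, and of Wnt5a below, were almost those of the fit with the filter. Their smaller p-values therefore did not come with larger differences. Wnt5a, the ligand best known for signaling without β-catenin, measured 10.1, 12.7 and 27.2 CPM against 30.6, 27.3 and 27.2 CPM, with the highest day-0 mouse next to the lowest day-21 mouse. Its log2 difference was 0.77 (SE 0.30, edgeR adjusted p = 0.055), so the miss was narrow. Wnt5a passed with DESeq2 (0.74, DESeq2 adjusted p = 0.027), limma-voom (0.91, limma adjusted p = 0.016), upper-quartile scaling (0.86, edgeR adjusted p = 0.037), library size alone (1.16, edgeR adjusted p = 0.0084) and no filter (0.78, edgeR adjusted p = 2.6e-05). Wnt5b, its close relative, was the only ligand tested whose day-21 mice all lay below the day-0 mice, with the nearest pair almost equal, at 6.61, 8.48 and 4.53 CPM against 4.52, 4.53 and 4.16 CPM, and it missed the threshold too (-0.58, SE 0.26, edgeR adjusted p = 0.099).

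None of the remaining 6 ligands passed the test. Wnt9b, the ureteric bud signal that induces Wnt4 in development, measured 3.10, 2.80 and 8.95 CPM on day 0 and 3.81, 5.84 and 5.50 CPM on day 21, a log2 difference of 0.05 (SE 0.42). The means for Wnt9a were 2.51 and 2.73 CPM (0.14, SE 0.40), and for Wnt11, a ligand of the ureteric bud tips, 1.93 and 1.70 CPM (-0.18, SE 0.47). For Wnt2, Wnt2b and Wnt16 no mouse was above 1.79 CPM, and the log2 differences were 0.57 (SE 0.44), -0.64 (SE 0.58) and 1.08 (SE 0.63). The intervals of these 6 ligands all spanned 0, and those of Wnt2b and Wnt16 ran from -1.93 to 0.65 and from -0.31 to 2.48, so changes of over 2-fold were within them.

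By level per kilobase the order of the ligands on day 0 was Wnt7b, Wnt5b, Wnt5a and Wnt4, at 4.28, 2.46, 2.13 and 1.83 CPM per kb. On day 21 it was Wnt7b, Wnt4, Wnt5a, Wnt10a and Wnt7a, at 6.51, 3.99, 3.63, 2.11 and 2.05 CPM per kb, with Wnt5b at 1.66. Wnt7a moved from rank 15 to rank 5 among 19 ligands and made up 8.57% ± 2.39 (SD, n = 3) of the summed ligand level on day 21, against 0.202% ± 0.350 on day 0. Wnt7b held 28.5% ± 2.52 and 28.0% ± 1.12 of the sum. Summed over the ligands, day 0 gave 10.4, 13.8 and 20.3 CPM per kb and day 21 gave 19.5, 25.4 and 25.2 CPM per kb. Day-0 replicate 3 overlapped the day-21 mice in this sum, and the means were 14.8 ± 5.03 and 23.3 ± 3.33 CPM per kb (SD, n = 3 each).

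**Figure D2:**
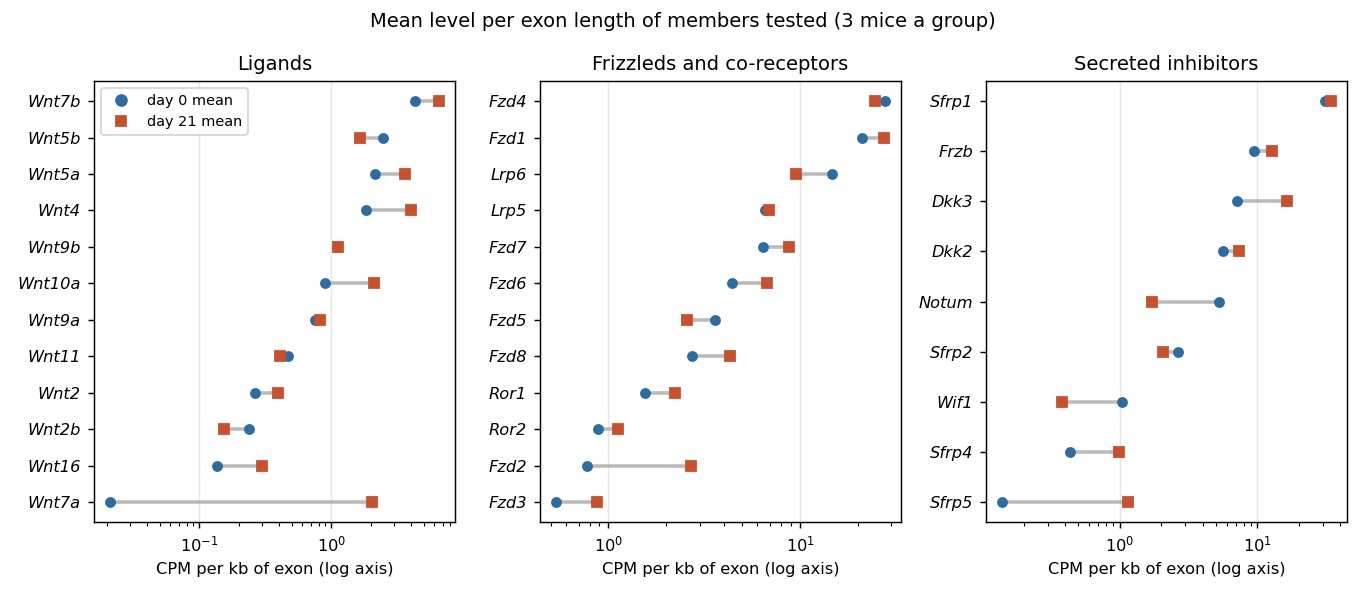
Mean level over 3 mice in CPM per kilobase of exon (log axes) on day 0 and day 21 for the tested ligands, the Frizzled receptors with co-receptors, and the secreted inhibitors. Wnt7b leads the ligands on both days, Sfrp1 leads the inhibitors, and Wnt7a moves from 0.0210 to 2.05 CPM per kb.

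Of the 10 Frizzled genes, the seven-pass receptors that bind Wnts, 8 were tested and 4 of them rose (50.0%, beside 19.6% of all genes tested). Fzd2 rose most, from 3.51, 2.14 and 2.88 CPM to 8.47, 10.3 and 10.9 CPM in the mice of each day. The lowest day-21 mouse was far above the highest day-0 mouse, and the mean went from 2.84 ± 0.683 to 9.88 ± 1.26 CPM (SD, n = 3 each). The increase was 3.50-fold, a log2 change of 1.81 (SE 0.25, edgeR adjusted p = 2.2e-04), at chr11:102604396-102608058.

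Fzd3, a receptor tied to planar cell polarity and axon guidance, measured 7.81, 5.10 and 7.62 CPM on day 0 and 9.53, 11.2 and 12.7 CPM on day 21. Fzd6, its partner in hair and skin patterning, measured 19.6, 22.2 and 21.7 CPM against 29.4, 36.6 and 31.4 CPM. Fzd8, the receptor in which the binding of a Wnt was seen in a crystal structure, measured 17.3, 13.9 and 17.9 CPM against 25.7, 25.8 and 25.3 CPM. In all 3 genes each day-21 mouse was above each day-0 mouse, and the day-21 mice of Fzd8 lay within a very small range. The log2 changes were 0.71 (SE 0.22, edgeR adjusted p = 0.023) for Fzd3, 0.62 (SE 0.13, edgeR adjusted p = 0.0035) for Fzd6 and 0.65 (SE 0.14, edgeR adjusted p = 0.0036) for Fzd8. These folds were close to the 1.5-fold threshold. The Fzd6 call was lost with RLE scaling (0.58), with DESeq2 (0.58), without day-0 replicate 1 (0.54) and without day-21 replicate 2 (0.52), and the Fzd8 call without day-0 replicate 2 (0.54). The Fzd3 call was lost without day-0 replicate 2 (0.53, edgeR adjusted p = 0.070), day-21 replicate 2 (0.71, edgeR adjusted p = 0.060) or day-21 replicate 3 (0.61, edgeR adjusted p = 0.10).

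The most abundant Frizzled genes per kilobase were Fzd4 and Fzd1. Fzd4, the receptor for Norrin in blood vessels, measured 183, 181 and 195 CPM on day 0 and 161, 164 and 173 CPM on day 21, without overlap but with a small difference (-0.17, SE 0.10, edgeR adjusted p = 0.20). The 5 endothelial markers summed to 349 to 398 CPM on day 0 and 181 to 302 CPM on day 21, and their part in the Fzd4 value was not tested. Fzd1 measured 79.5, 97.7 and 88.2 CPM against 124, 96.5 and 123 CPM, with day-21 replicate 2 inside the day-0 range. Fzd1 (0.37, SE 0.13), Fzd7 (0.45, SE 0.15) and Fzd5 (-0.49, SE 0.15) had edgeR adjusted p = 0.041, 0.029 and 0.020 but folds under 1.5, and Fzd5 shares 17.8% of its exon bases with a gene on the other strand. Per kilobase, Fzd4 and Fzd1 stood at 27.7 and 21.1 CPM per kb on day 0 and 24.7 and 27.3 on day 21. Fzd2 made up 1.15% ± 0.300 of the summed Frizzled level on day 0 and 3.46% ± 0.415 on day 21 (SD, n = 3 each). The summed level was 65.7, 68.3 and 68.3 CPM per kb on day 0 and 77.5, 75.8 and 80.5 on day 21, without overlap.

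Lrp6, the co-receptor that Wnt and Frizzled recruit to start β-catenin signaling, measured 210, 176 and 216 CPM on day 0 and 140, 122 and 130 CPM on day 21. Every day-21 mouse was below every day-0 mouse. The mean fell from 201 ± 21.5 to 131 ± 8.74 CPM (SD, n = 3 each), 1.53-fold lower and a log2 change of -0.62 (SE 0.12, 95% interval -0.88 to -0.36, edgeR adjusted p = 0.0017). The fold was just past the threshold, and the call was lost with upper-quartile scaling (-0.53), without day-0 replicate 3 (-0.58) and without day-21 replicate 2 (-0.57). With library size alone the difference was -0.23 (edgeR adjusted p = 0.12). Lrp5, the paralog with the same role, measured 63.9, 64.9 and 63.2 CPM against 70.8, 61.8 and 68.7 CPM, with overlap (0.07, SE 0.10, 95% interval -0.16 to 0.30). Lrp6 accounted for 61.9% ± 2.39 of the summed co-receptor level per kilobase on day 0 and 48.3% ± 0.720 on day 21.

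Ror1 and Ror2 are tyrosine kinase-like receptors for Wnt5a. Ror1 measured 6.01, 7.24 and 13.8 CPM on day 0 and 14.2, 12.4 and 12.1 CPM on day 21, where again day-0 replicate 3 sat among the day-21 mice (0.52, SE 0.28, edgeR adjusted p = 0.15). Ror2 measured 3.61, 3.29 and 4.32 CPM against 5.65, 3.27 and 5.44 CPM (0.36, SE 0.29, edgeR adjusted p = 0.34), and its low day-21 mouse was replicate 2, which also had the lowest sum of fibroblast and pericyte markers of that day (1206 CPM). The part of those cells in the Ror values was not tested.

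**Figure D3:**
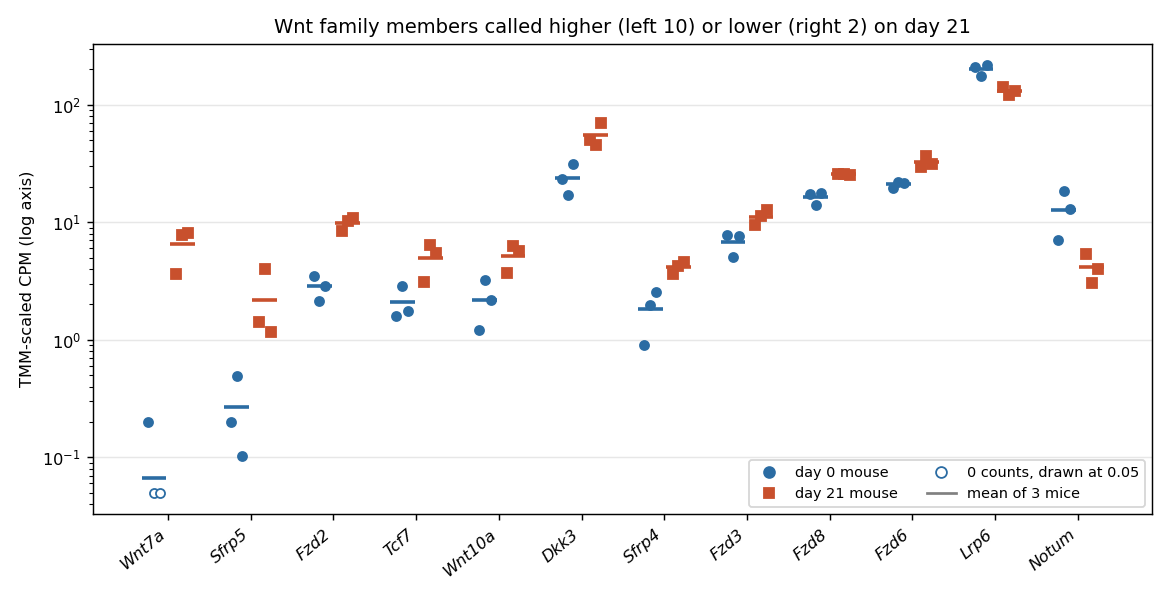
CPM of the 12 differentially expressed members in each of the 3 day-0 and 3 day-21 mice, on a log axis, with points for mice, lines for means and open points for mice with 0 counts. For 10 genes all day-21 mice lie above the day-0 mice and for Lrp6 and Notum they lie below.

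Among 11 secreted inhibitors, 9 were tested, 3 rose and 1 fell (33.3% and 11.1%, beside 19.6% and 15.5% of all genes tested). Dkk3, a Dickkopf family member with little effect on Lrp6 itself and a known product of stressed tubules, measured 23.4, 16.9 and 31.5 CPM on day 0 and 50.5, 45.2 and 70.2 CPM on day 21. The mice of each day did not overlap, and the mean went from 23.9 ± 7.32 to 55.3 ± 13.2 CPM (SD, n = 3 each). The increase was 2.32-fold (log2 change 1.21, SE 0.23, edgeR adjusted p = 0.0017). Dkk3 made up 11.4% ± 3.28 of the summed inhibitor level per kilobase on day 0 and 21.1% ± 2.22 on day 21.

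Sfrp4 and Sfrp5 are secreted Frizzled-related proteins, decoys that bind Wnts outside the cell. Sfrp5 was at 2, 6 and 1 raw counts against 20, 67 and 19, or 0.200, 0.494 and 0.103 CPM against 1.41, 3.99 and 1.16 CPM. The groups did not overlap, but day-21 replicate 2 was well above the other mice of that day. The log2 change was 2.94 (SE 0.70, 7.67-fold, edgeR adjusted p = 0.0063), and it was 2.17 without day-21 replicate 2 and 3.78 without day-0 replicate 2. Sfrp4 measured 0.901, 1.98 and 2.57 CPM against 3.60, 4.23 and 4.59 CPM, without overlap. Its log2 change was 1.18 (SE 0.37, edgeR adjusted p = 0.023). The Sfrp4 call was lost without day-0 replicate 1 (0.85, edgeR adjusted p = 0.056), day-0 replicate 2 (1.25, edgeR adjusted p = 0.050), day-21 replicate 2 (1.17, edgeR adjusted p = 0.061) or day-21 replicate 3 (1.11, edgeR adjusted p = 0.082).

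Notum, the extracellular carboxylesterase that removes the fatty acid from the serine shown above, moved the other way. It measured 7.11, 18.4 and 12.9 CPM on day 0 and 5.36, 3.04 and 4.04 CPM on day 21, so the highest day-21 mouse lay below the lowest day-0 mouse. The mean fell from 12.8 ± 5.62 to 4.15 ± 1.17 CPM (SD, n = 3 each), 3.11-fold lower with a log2 change of -1.63 (SE 0.34, 95% interval -2.39 to -0.88, edgeR adjusted p = 0.0030). The value without any 1 mouse ranged from -1.95 to -1.27. Notum lies at chr11:120653788-120661175 on the minus strand, and 38.1% of its exon bases are shared with the antisense genes Notumos and Myadml2os. Counts of Notumos were 22, 54 and 49 against 18, 20 and 11, and those of Myadml2os 31, 66 and 48 against 20, 22 and 18, both without overlap. The strand setting of the counting is not given in the sources used here, so reads of Notum and of its antisense genes cannot be told apart.

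The other 5 inhibitors tested did not pass. Sfrp1, the most abundant inhibitor per kilobase, measured 116, 152 and 137 CPM against 143, 145 and 163 CPM (0.15, SE 0.13). Frzb measured 25.6, 27.3 and 38.7 CPM against 46.1, 24.8 and 53.8 CPM (0.44, SE 0.26), and Dkk2 measured 19.2, 17.2 and 26.0 CPM against 31.5, 19.5 and 30.8 CPM (0.39, SE 0.21). Day-21 replicate 2 was the low mouse of its day in both, and without it both passed, at 0.71 (edgeR adjusted p = 0.016) for Frzb and 0.59 (edgeR adjusted p = 0.035) for Dkk2. Leaving out the day-21 mouse nearest to day 0 widens a difference, so these passes are no separate support for a change. Sfrp2, with 16.1% of its exon bases shared on the other strand, had means of 5.72 and 4.45 CPM (-0.36, SE 0.31). Wif1, a secreted Wnt-binding protein, measured 2.80, 3.95 and 0.720 CPM against 1.34, 0.953 and 0.489 CPM, with day-0 replicate 3 among the day-21 mice (-1.45, SE 0.58, 95% interval -2.75 to -0.15, edgeR adjusted p = 0.066). Wif1 passed with DESeq2 (-1.48, DESeq2 adjusted p = 0.042) and with no filter (-1.45, edgeR adjusted p = 0.0080). The no-filter difference was no larger than that of the fit with the filter.

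Lgr4, the receptor through which R-spondins protect Frizzled receptors from removal, had the highest level per kilobase of all members on day 0, 35.5 CPM per kb, and 24.6 on day 21. It measured 265, 202 and 158 CPM on day 0 and 159, 144 and 130 CPM on day 21, and day-0 replicate 3 overlapped the day-21 mice. The log2 difference was -0.53 (SE 0.17, edgeR adjusted p = 0.030) with a fold under 1.5, and Lgr4 passed without day-21 replicate 1 (-0.60, edgeR adjusted p = 0.043). That was the day-21 mouse nearest to day 0, so this pass is no separate support for a change. Lgr4 was 98.8% of the summed level of R-spondins and Lgr receptors on day 0 and 98.2% on day 21. Znrf3 and Rnf43, the ligases that Lgr4 and R-spondins hold in check, had means of 14.8 and 14.1 CPM and of 8.16 and 8.61 CPM. Their intervals, -0.40 to 0.25 and -0.32 to 0.48 on the log2 scale, did not reach a 1.5-fold change in either direction.

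Axin1, the scaffold of the destruction complex, measured 55.1, 49.1 and 47.1 CPM on day 0 and 49.7, 52.2 and 48.3 CPM on day 21 (-0.01, SE 0.11, 95% interval -0.25 to 0.23). Axin2, the paralog that is itself a widely used target of β-catenin, measured 0.701, 1.32 and 6.38 CPM against 4.02, 4.41 and 6.91 CPM. Day-0 replicates 1 and 2 were below all day-21 mice and replicate 3 was among them, so the log2 difference of 0.89 had an interval of -0.47 to 2.26 (SE 0.61, edgeR adjusted p = 0.26). With no filter the Axin2 difference was almost the same, 0.90, and passed (edgeR adjusted p = 0.018). The smaller p therefore did not come with a larger difference.

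Tcf7, the TCF factor typical of T cells, rose from 1.60, 2.88 and 1.75 CPM to 3.10, 6.37 and 5.50 CPM in the mice of each day. The groups did not overlap, though day-21 replicate 1 was close to the highest day-0 mouse, and the log2 change was 1.25 (SE 0.36, 2.38-fold, edgeR adjusted p = 0.017). The call was lost without day-0 replicate 1 (1.07, edgeR adjusted p = 0.051), day-0 replicate 3 (1.12, edgeR adjusted p = 0.051), day-21 replicate 2 (1.04, edgeR adjusted p = 0.073) or day-21 replicate 3 (1.18, edgeR adjusted p = 0.059). All 5 T cell markers rose as well, their sum going from 3.20 to 8.73 CPM on day 0 to 21.6 to 23.9 CPM on day 21, and their part in the Tcf7 value was not tested. Lef1, the other lymphoid factor of the family, had counts of 5, 10 and 7 against 14, 24 and 26, without overlap but under the threshold (0.96, SE 0.43, edgeR adjusted p = 0.093). Tcf7l1 and Tcf7l2, the more widely expressed factors, had means of 9.60 and 12.4 CPM (0.37, SE 0.18) and of 11.6 and 13.3 CPM (0.21, SE 0.18).

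The 17 members under the filter held few reads. Wnt3a, Wnt8a, Dkk4 and Rspo2 had no count in any mouse, which at this depth allows up to 3 counts in each. Wnt1, Wnt3 and Rspo4 had no count on day 0 and at most 3 in a day-21 mouse, and Wnt10b reached at most 4 counts in a mouse. Fzd10 had 0, 0 and 0 against 1, 4 and 1, Fzd9 0, 2 and 9 against 0, 2 and 2, and Wnt8b 3, 3 and 6 against 3, 1 and 0. Dkk1, the best known Lrp6 antagonist, had 0, 2 and 2 counts against 5, 1 and 1. The R-spondins are agonists of Lgr receptors: Rspo1 had 2, 2 and 2 counts against 4, 5 and 3, and Rspo3 had 2, 1 and 9 against 8, 10 and 11. Lgr5, a stem cell marker of the gut, had 8, 6 and 10 counts against 3, 12 and 2, and Lgr6 had 3, 1 and 12 against 3, 7 and 8. How large a difference could be detected in these genes at this depth was not tested. In an edgeR fit with no filter, 13 of the 17 could be tested, none was differentially expressed and 0 had an unadjusted p under 0.05.

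Without day-0 replicate 3, 8 more members passed the test, of which Wnt4, Wnt5a, Wnt7b, Wif1 and Axin2 also passed with all 6 mice under other settings, as given above, and Ror1 with library size alone (0.91, edgeR adjusted p = 0.019). That mouse was the highest of the day-0 mice in 20 of the 42 members (47.6%), beside 35.1% of all genes tested. It was the day-0 mouse nearest to the day-21 mice for Wnt4, Wnt5a, Wnt7b, Ror1, Axin2, Wif1, Lgr4 and Wnt5b. Leaving out the nearest day-0 mouse widens a difference, so these 8 passes are no separate support for a change. Each mouse was left out in turn, and this one was taken up after its values were seen. Without that mouse, Wnt4 (2.02, edgeR adjusted p = 0.0072), Wnt5a (1.29, edgeR adjusted p = 2.0e-04), Wnt7b (0.97, edgeR adjusted p = 0.0012), Axin2 (2.29, edgeR adjusted p = 0.0021) and Ror1 (0.93, edgeR adjusted p = 0.0042) passed as higher. Wif1 (-1.89, edgeR adjusted p = 0.0090), Lgr4 (-0.71, edgeR adjusted p = 0.0027) and Wnt5b (-0.80, edgeR adjusted p = 0.023) passed as lower, and Lrp6 and Tcf7 lost their calls, which gave 14 higher and 4 lower. The same mouse had the highest day-0 sums of the principal cell markers (596 CPM, beside 463 and 440), a sum set largely by Aqp2 (258, 216 and 398 CPM) while Aqp3 (130, 110 and 96.9 CPM) and Scnn1g (44.1, 60.8 and 42.4 CPM) were lowest in it. It also had the highest day-0 sums of the urothelium markers (21.0 CPM, beside 4.21 and 13.5) and the fibroblast and pericyte markers (400 CPM, beside 285 and 273). Of the fibroblast and pericyte markers, Pdgfrb (47.6, 43.2 and 42.6 CPM) was lowest in that mouse. Acta2 (56.9, 73.4 and 58.5 CPM) was highest in replicate 2, and the others of that list were highest in replicate 3. The sums of the podocyte markers (180 CPM, beside 298 and 282), the intercalated cell markers (232 CPM, beside 364 and 330) and the distal convoluted tubule markers (491 CPM, beside 825 and 704) were lowest in replicate 3. The part of these cells in the values of that mouse was not tested.

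**Figure D4:**
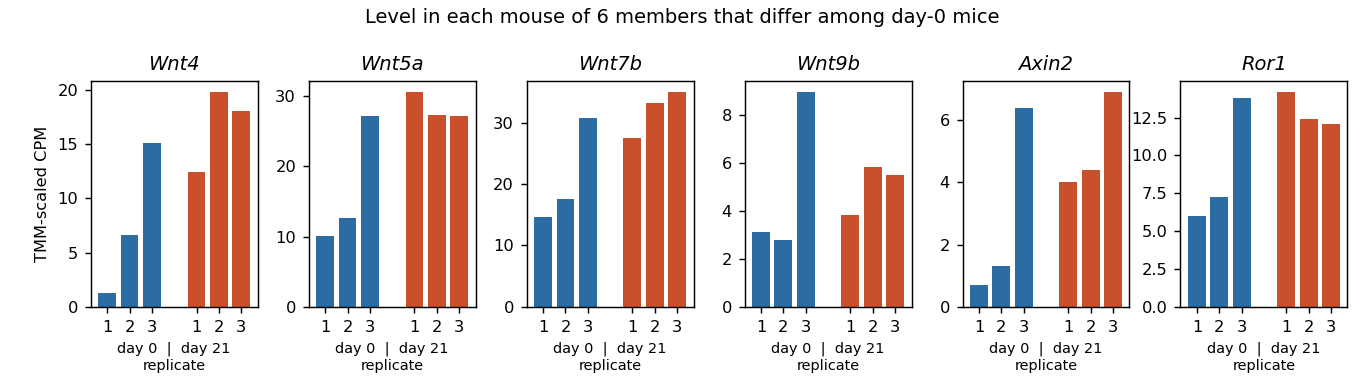
CPM of Wnt4, Wnt5a, Wnt7b, Wnt9b, Axin2 and Ror1 in each mouse, a bar for each mouse on a linear axis starting at 0; the genes were chosen after their values were seen. Day-0 replicate 3 is the highest day-0 mouse in every panel, and in Axin2 it stands at 6.38 CPM beside 0.701 and 1.32.

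The pathway was followed further with 58 other Wnt genes, of which 51 were tested, 14 rose and 1 fell (27.5% and 1.96%, beside 19.6% and 15.5% of all genes tested), with a median log2 fold change of 0.17. Ligand secretion showed no called gene. Porcn, which attaches the fatty acid, had means of 5.47 and 5.12 CPM (-0.10, SE 0.26) and Wls, which carries Wnts to the surface, 228 and 252 CPM (0.15, SE 0.11). Of 6 other receptors and secreted modulators tested, 4 rose (66.7%, beside 19.6% of all genes): the pseudokinase receptor Ptk7 (log2 change 1.51), the inhibitors Sostdc1 (0.80) and Apcdd1 (1.46), and Tpbg, a membrane protein that inhibits signaling at Lrp6. Tpbg measured 2.60, 1.81 and 1.44 CPM on day 0 and 6.14, 9.71 and 8.93 CPM on day 21, a log2 change of 2.08 (SE 0.30, edgeR adjusted p = 3.1e-04).

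Of 20 genes of the Dishevelled and destruction complex layer, 5 rose, 25.0% beside 19.6% of all genes tested, and 1 fell, beside 15.5%. Nkd2, an inhibitor that binds Dishevelled, measured 1.20, 0.906 and 0.926 CPM on day 0 and 9.74, 17.6 and 16.6 CPM on day 21. The day-21 mice were all far above the day-0 mice (log2 change 3.85, SE 0.31, edgeR adjusted p = 9.2e-06). Its relative Nkd1 rose by 1.88 (SE 0.28, edgeR adjusted p = 3.4e-04) on the log2 scale, and Csnk1e, Dact3 and Apc2 rose by 1.02, 2.24 and 1.55. Dvl2, a Dishevelled protein that relays the signal from Frizzled, measured 203, 238 and 201 CPM against 119, 109 and 111 CPM and was the gene that fell (-0.92, SE 0.11, edgeR adjusted p = 9.5e-05). Gsk3b, the kinase that marks β-catenin for degradation, went from 78.1 ± 4.14 to 64.0 ± 0.0360 CPM with a fold under 1.5 (-0.29, SE 0.10, edgeR adjusted p = 0.036).

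β-catenin itself, encoded by Ctnnb1, measured 662, 606 and 643 CPM on day 0 and 706, 631 and 686 CPM on day 21, with overlap (0.08, SE 0.11, edgeR adjusted p = 0.56). Of 12 genes for β-catenin and its nuclear cofactors, the coactivators Bcl9 (0.70), Pygo1 (2.35) and Pygo2 (0.64) rose (25.0%). Of 11 planar cell polarity genes tested, 2 rose (18.2%), so both shares were near the 19.6% of all genes. Vangl2, a core polarity protein, measured 1.60, 1.81 and 2.47 CPM against 7.48, 9.77 and 9.29 CPM (log2 change 2.18, SE 0.26, edgeR adjusted p = 8.9e-05), and Prickle3, its cytoplasmic partner, rose by 1.30 on the log2 scale (SE 0.17, edgeR adjusted p = 1.5e-04).

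Of 22 genes often named as β-catenin and TCF targets, 20 were tested, 15 rose and 1 fell (75.0% higher, beside 19.6% of all genes), with a median log2 fold change of 1.44. Many of these genes also answer to other injury and growth signals. Mmp7, a matrix protease, had no count on day 0 and 12.6, 27.9 and 15.2 CPM on day 21, at least 65.2-fold higher with day 0 at the floor of 3 counts per library (edgeR adjusted p = 2.0e-05). Sox9, a factor of regenerating tubules, measured 1.10, 0.576 and 1.34 CPM against 19.2, 33.5 and 25.4 CPM (log2 change 4.72, SE 0.32, edgeR adjusted p = 3.0e-06). Cd44, a hyaluronan receptor, measured 3.20, 3.70 and 2.37 CPM against 57.2, 84.9 and 56.8 CPM (4.41, SE 0.23, edgeR adjusted p = 1.1e-06). Sp5, a direct target that tracks β-catenin activity in many tissues, fell from 17.0, 15.7 and 25.1 CPM to 5.15, 5.72 and 6.18 CPM (-1.76, SE 0.21, edgeR adjusted p = 9.6e-05). The cell cycle gene Ccnd1 measured 231, 250 and 188 CPM against 174, 206 and 189 CPM (-0.23, SE 0.13, edgeR adjusted p = 0.18).

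**Figure D5:**
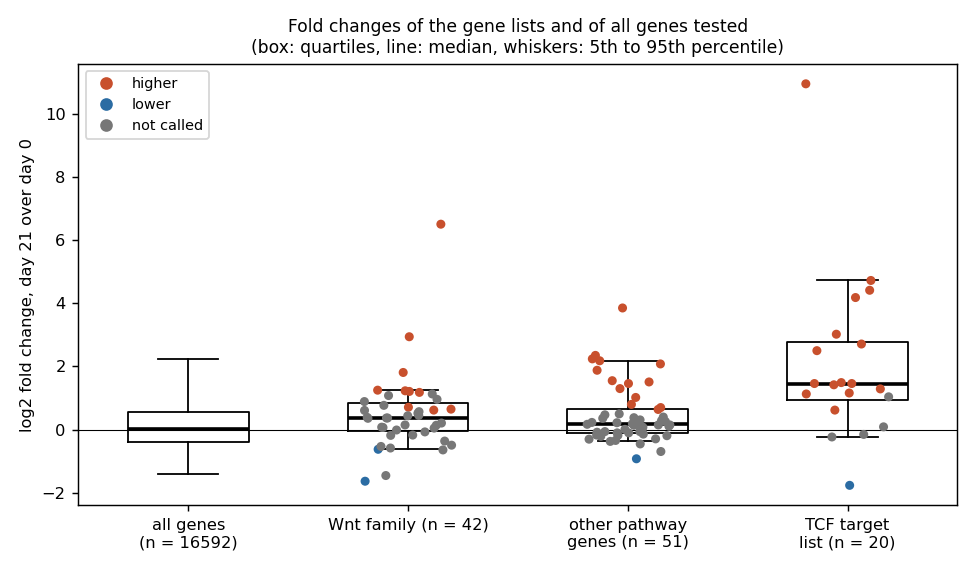
Log2 fold changes of day 21 against day 0 for all 16592 genes tested, the 42 members, the 51 other pathway genes and the 20 target genes, as boxes from quartile to quartile with the median and a point for each listed gene, colored by call. The medians are 0.03, 0.38, 0.17 and 1.44.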

How the data were processed

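Whole kidney RNA of 3 day-0 and 3 day-21 mice was sequenced. The authors deposited raw counts per gene, without normalization, 1 column per mouse; the submitters' processing notes name TopHat and the mm10 build. The counting program, its strand setting and read filters are not given in the sources used here. All 55450 gene IDs matched GENCODE M21. Totals were 10963849 to 14333311 counts, and intervals cover these libraries only.

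Counts were tested with edgeR 4.0.16 in R 4.3.3: filterByExpr by group (minimum count 10, minimum total 15), TMM scaling, glmQLFit and glmQLFTest of day 21 against day 0, with Benjamini-Hochberg adjustment over the 16592 genes kept. Genes were called at adjusted p under 0.05 and a fold over 1.5, the study's thresholds. CPM used TMM-scaled totals, and levels per kilobase used the merged exon length. A group at 0, or with all libraries at or under 3 counts, was set to that floor per library for a lower bound of the fold. Single values were tested by a two-sided exact permutation test, whose smallest p is 0.1.

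Alternatives were RLE, upper-quartile and library size scaling, mitochondrially encoded genes left out, no filter or a mean of at least 50 counts, DESeq2 1.42.0, limma-voom (limma 3.58.1), the replicate number as a block, each mouse left out, adjusted p under 0.05 at any fold, and adjusted p under 0.01 with a fold over 2. On counts simulated for day 21 against day 0 (16263 genes, 200 changed 3-fold), edgeR recovered 169 with 13 unchanged genes called, DESeq2 172 with 26, and limma 165 with 9. In the data 35.1% of genes were called, and several called members were near 1.5-fold. The simulated rates therefore do not carry over to these members. Correlations of same-numbered deviations were -0.02, 0.17 and 0.09, too few values to show whether the numbers 1 to 3 paired the mice. No 2 libraries agreed within sampling noise.

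Every member was reported. Of the pathway and target lists, the 3 largest rises and 3 largest falls among called genes with a mean of at least 50 counts were named, and genes outside this rule were named after their values were seen. The members and lists were chosen with earlier results of these data known. Sequences were read from the GRCm38 reference with GENCODE M21 coding exons. Proteomic data of the study were not analysed here.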

Additional observations from a re-analysis of the deposited data

How the results depend on the processing

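The count of members higher on day 21, 10 in the report, was 22 with library size alone and 4 at adjusted p under 0.01 with a fold over 2, and leaving out 1 mouse at a time gave 6 to 14, with 6 without day-0 replicate 1 or day-21 replicate 3. The count lower, 2, was 1 with upper-quartile scaling, 1 with library size alone, 1 at the stricter threshold and 4 at any fold, and 1 to 4 when a mouse was left out. Other pathway genes higher, 14, were 23 with library size alone, 9 at the stricter threshold and 11 to 14 without 1 mouse. Those lower, 1, were 0 with library size alone, 0 at the stricter threshold, 2 with no filter, 2 with DESeq2, 5 at any fold and 1 to 2 without 1 mouse. Target genes higher, 15, ranged from 13 to 15 without 1 mouse. Members under the filter fell from 17 to 4 with no filter, since only a total above 0 was then asked for. With library size alone 81.7% of all calls were higher, beside 55.8% with TMM. Except for fewer mice or another threshold, the cause was not tested.

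Wnt7a, Fzd2, Dkk3, Sfrp5 and Notum kept their calls in each of the other fits that tested them at the same threshold, the replicate block and each left-out mouse included. With the replicate number as a block the members gave 14 higher and 3 lower and the other pathway genes 2 lower; Axin2, Wif1, Wnt4, Wnt5a and Wnt7b were gained, as they were with no filter on low counts. Only number 2 correlated best with its own number, and 3 numbers are too few to show whether same-numbered mice were paired.

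Changes of sign were seen for members that did not pass the test. With library size alone Wnt11 was at 0.21, Fzd4 at 0.22, Sfrp2 at 0.04, Znrf3 at 0.32 and Axin1 at 0.38. Upper-quartile scaling put Znrf3 at 0.01 and Axin1 at 0.08, and the mean of at least 50 counts put Axin1 at 0.02. Without 1 mouse Wnt9a ranged from -0.20 to 0.42, Wnt9b from -0.25 to 0.76, Wnt11 from -0.53 to 0.09 and Axin1 from -0.07 to 0.04. Members under the filter held few reads, and how large a difference could be detected in them was not tested.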

Other observations

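The spread among mice was wider on day 0 than on day 21. The coefficient of variation of CPM was larger on day 0 in 32 of 42 members tested (76.2%), beside 70.2% of all genes tested, with medians of 24.1% and 14.6% for the members and 16.4% and 10.4% for all genes. Among members with reads in every mouse it was widest for Axin2 (111%) and Wnt4 (90.9%) on day 0.

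Of the 19 ligand genes, 8 lie in 4 neighbouring pairs with no protein-coding gene between: Wnt6 and Wnt10a on chromosome 1, Wnt3a and Wnt9a and also Wnt9b and Wnt3 on chromosome 11, and Wnt10b and Wnt1 on chromosome 15. Gaps were 6193, 16175, 24328 and 11706 bases. In each pair at least 1 gene was under the filter on low counts.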
